A study of Drosophila melanogaster with 6 samples.

Results

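Polycomblike (Pcl) peaks that were called in 1 replicate library and not in the other were examined in Drosophila melanogaster embryos aged 12 to 24 h. The members were chosen by the authors' peak calls. Peaks of the 4 deposited lists (Jarid2 A and B, Pcl A and B) were merged where they overlapped or touched, and a merged region was kept if it held a peak of exactly 1 Pcl list and of neither Jarid2 list. It also had to lie on 2L, 2R, 3L or 3R, outside 3 windows on 3R with very many Pcl peaks (2.4 to 2.9, 12.4 to 12.9 and 17.1 to 17.5 Mb). This gave 2420 members out of 7007 merged regions in the whole series, 2047 of them with a peak in Pcl A (A-only regions) and 373 with a peak in Pcl B (B-only regions). The same stretches of the 4 arms held 1258 regions with peaks of both Pcl lists, called replicated regions here, of which 1106 had no Jarid2 peak.

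The embryos expressed Pcl or Jarid2 carrying BioTAP, a tag for purification in tandem on IgG beads and on streptavidin beads, and each protein had 2 immunoprecipitated libraries and 1 input library. The inputs had no peak list and were not analysed here. The labels state neither the promoter that drives the tagged proteins nor whether replicates came from separate collections of embryos, and whole embryos mix all cell types.

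Pcl is an accessory subunit of Polycomb repressive complex 2, the enzyme complex that methylates a lysine in the tail of histone H3 and keeps developmental genes silent. In flies the complex is recruited at Polycomb response elements, where its subunits give narrow, strong peaks, and the methyl mark spreads from there over a broad domain. Jarid2 is an accessory subunit of a different variant of the same complex. Peaks found in 1 of 2 replicates can lie inside such domains or away from them, and their place relative to replicated regions was the question here.

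Most of the members lay beside replicated Pcl regions. The gap from edge to edge was at most 1 kb for 971 of the 2047 A-only regions, or 47.4% (Wilson 95% interval 45.3 to 49.6%), and for 143 of the 373 B-only regions, or 38.3% (33.6 to 43.4%). A further 32.5% and 34.0% lay 1 to 5 kb away. Only 6.01% and 4.56% fell between 5 and 10 kb, and 288 A-only regions (14.1%, 12.6 to 15.6%) and 86 B-only regions (23.1%, 19.1 to 27.6%) stood alone, more than 10 kb from any replicated region. The median gap was 1116 bp for A-only and 1678 bp for B-only regions, and the longest gaps exceeded a megabase in both. All intervals cover counting error only, and neighbouring regions are not independent.

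**Figure D1:**
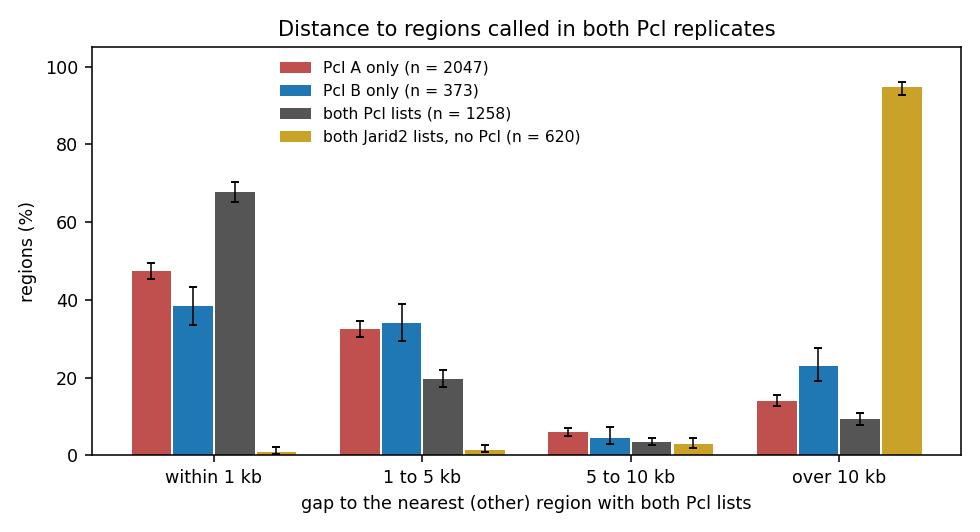
Share of regions (%, y axis, from 0) by the gap to the nearest other region with both Pcl lists (x axis), for A-only, B-only, replicated Pcl and Jarid2-only regions; error bars are Wilson 95% intervals. A-only and B-only regions pile up within 5 kb (79.9% and 72.4%), whereas 94.7% of Jarid2-only regions, chosen to hold no Pcl peak, are over 10 kb away.

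Replicated regions were themselves close to each other. The next replicated region was within 1 kb for 67.8% of them and over 10 kb away for 9.22%, with a median gap of 334 bp. Of the 620 regions with peaks of both Jarid2 lists and no Pcl peak, 0.968% lay within 1 kb of a replicated Pcl region. That set leaves out Jarid2 peaks that overlap a Pcl peak, among them those in the 152 replicated regions with a Jarid2 peak, which lowers its share near Pcl. Since the members and the replicated regions come from the same lists, these shares describe the lists and were not tested.

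The sequence available near replicated regions was small, so the members were dense there. Outside the replicated regions, 1.54% of the sequence lay within 1 kb of one and 63.4% lay more than 100 kb away. By the centre of each region, the first kilobase held 875 A-only regions, or 616 per Mb of sequence, and 130 B-only regions, or 91.5 per Mb. Density fell with distance up to 50 kb in both lists. It was 439 and 77.1 per Mb between 1 and 2 kb, 54.9 and 7.30 per Mb between 5 and 10 kb, and 4.47 and 1.39 per Mb between 20 and 50 kb. From 50 to 100 kb it was 3.45 and 0.689 per Mb, and beyond 100 kb it was 2.11 and 0.736 per Mb, so that B-only density did not fall over the last step. The first kilobase was thus 293 times as dense as the sequence beyond 100 kb for A-only regions and 124 times as dense for B-only regions. Jarid2-only regions had 4.22 per Mb in the first kilobase, from 6 regions, and 6.71 per Mb beyond 100 kb, and their choice as regions without Pcl lowers the first of these values.

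**Figure D2:**
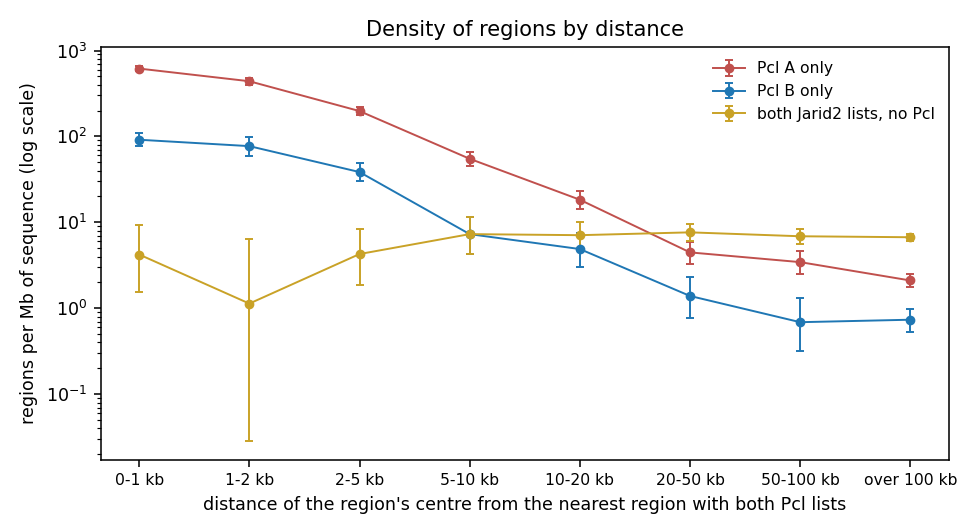
Regions per Mb of sequence (y axis, log scale) by the distance of the region's centre from the nearest region with both Pcl lists (x axis); bars are exact Poisson 95% intervals of the count. A-only density falls from 616 to 2.11 per Mb and B-only density from 91.5 to 0.736 per Mb, while Jarid2-only regions, chosen to hold no Pcl peak, lie between 1.13 and 7.65 per Mb.

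Members often lay in the gaps inside a group of replicated regions and not just on its outer side. Replicated regions within 5 kb on both sides enclosed 891 A-only regions (43.5%) and 142 B-only regions (38.1%). On 1 side only there was a replicated region for 745 (36.4%) and 128 (34.3%). A closer enclosure, within 1 kb on both sides, was found for 250 A-only (12.2%) and 32 B-only regions (8.58%). Enclosed A-only regions were somewhat wider, with a median of 267 bp against 207 bp for those with no replicated region within 5 kb.

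Chaining all Pcl regions no more than 5 kb apart gave 264 stretches that held a replicated region, with a median span of 8.11 kb. These stretches contained 1738 A-only and 290 B-only regions, or 83.8% of the members, beside the 1258 replicated ones. In 134 of them the members outnumbered the replicated regions, and 65 had no member. The 75 stretches with 5 or more replicated regions held 1490 members, 61.6% of the total. Across the 264 stretches the number of replicated regions and of A-only regions had a Spearman rho of 0.796, and for B-only regions rho was 0.731. Longer stretches have room for more of each, so these values are a description.

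The stretch with the most A-only regions was on 2L from 5372658 to 5515368, a span of 142.7 kb with 40 replicated, 69 A-only and 13 B-only regions. Its replicated regions reached a fold of 12.4 in Pcl A, and of 21.7 in Pcl B. Fold is the enrichment of a peak over its local background as the authors' caller gave it. The median folds of the 40 replicated regions were 3.46 and 4.12, and their lowest folds 2.34 and 2.84. The 69 A-only regions had folds of 1.96 to 4.38 with a median of 2.99, and 40 of them were within 1 kb of a replicated region. The 13 B-only regions had folds of 2.70 to 4.60 with a median of 3.52. Members lay along much of the stretch at low fold. None lay between 26.33 and 35.74 kb from its start, where Pcl B reached a fold of 21.7. There was also none between 82.52 and 94.59 kb, where a Pcl B peak had a fold of 20.65. Replicated regions covered most of both intervals, among them Pcl A peaks from 28.04 to 30.58, from 30.71 to 34.0 and from 83.84 to 89.56 kb. By the rule members cannot overlap these, so little room was left, and their absence is no trait of tall peaks.

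**Figure D3:**
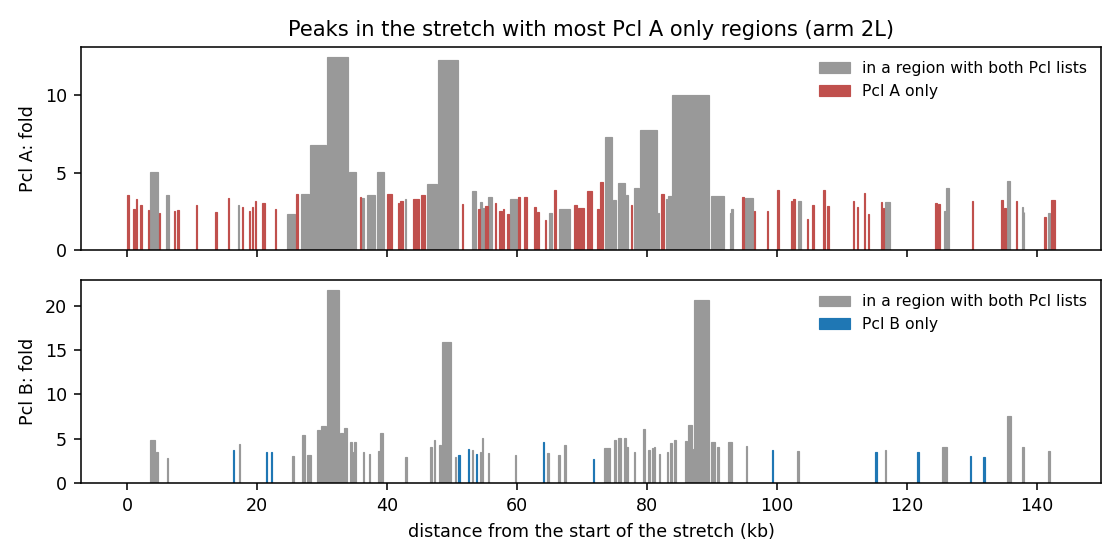
Peaks of Pcl A (top) and Pcl B (bottom) in the 142.7 kb stretch on 2L; the x axis is distance from its start (kb), bar width is peak width and bar height is fold (y axes from 0, different scales). Coloured bars are A-only or B-only regions, which stay at or below folds of 4.38 and 4.60. Grey bars are peaks in regions with both Pcl lists, which reach 12.4 and 21.7. By their highest fold, these regions have medians of 3.46 and 4.12.

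Other stretches rich in members were on 3L from 12565455 to 12694594 (51 replicated, 55 A-only and 5 B-only regions), on 3L from 14094401 to 14178433 (21, 55 and 2) and on 2R from 7351058 to 7464785 (38, 45 and 4). The one with the most B-only regions was on 2L from 12603490 to 12689841, where 15 B-only and 35 A-only regions accompanied 29 replicated ones. In windows of 200 kb the most members, 61, were found on 2L from 5.4 to 5.6 Mb and on 3L from 12.6 to 12.8 Mb, followed by 58 on 3L from 14.0 to 14.2 Mb. The densest 47 of the 478 windows held 62.2% of the members. The 4 arms were alike in the balance of single and replicated calls. Of the regions with a Pcl A peak, the A-only share was 61.1% over the 4 arms and ranged from 59.2% on 2R to 63.1% on 3L. Of those with a Pcl B peak, the B-only share was 22.8% overall and ranged from 20.6% on 2R to 23.9% on 2L.

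The next question was whether members were weak shoulders of the regions they flanked. Within 1 kb, 757 of 971 A-only regions (78.0%, 75.3 to 80.5%) had a lower fold than the nearest replicated region had in the same list, and so did 103 of 143 B-only regions (72.0%, 64.2 to 78.7%). The differences were mostly moderate. The neighbour's fold was 1.33 times that of an A-only region in the median, with quartiles of 1.04 and 1.94, and 1.19 times that of a B-only region, with quartiles of 0.972 and 1.56. It was more than 2 times as high for 23.3% of the A-only and 16.8% of the B-only regions. At 1 to 5 kb the share that was weaker was 77.3% for A-only and 78.0% for B-only regions, close to that within 1 kb. A replicated region takes the highest fold among its peaks, and wide regions can hold several, which raises the neighbour's value.

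Flanking members were not confined to tall neighbours. Of the 1258 replicated regions, 809 (64.3%) had an A-only region within 1 kb and 166 (13.2%) a B-only region. When replicated regions were ranked by their fold in Pcl B, in which A-only regions have no peak, the share with an A-only region within 1 kb was 62.2% in the weakest quartile (median fold 3.27) and 66.3% in the strongest (median fold 8.85), with overlapping intervals of 56.8 to 67.4% and 61.0 to 71.3%. Ranked by fold in Pcl A, the share with a B-only region was 13.3% in the weakest and 12.1% in the strongest quartile (10.0 to 17.5% and 8.92 to 16.1%). By width of the replicated region the A-only share went from 62.2% in the narrowest to 66.7% in the widest quartile (56.8 to 67.4% and 61.3 to 71.6%).

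Some flanking members exceeded their neighbour. The highest fold of an A-only region within 1 kb was 5.30, on 3R from 175568 to 176374, and the replicated region 241 bp to its left had a Pcl A fold of 2.91 and a Pcl B fold of 3.26. The next was on 3R from 25527523 to 25527905, with a fold of 5.04 beside a region of fold 4.51 in Pcl A. The third, on 2L from 18932995 to 18933369, was well below its neighbour. It had a fold of 4.86 and lay 195 bp from a region 3737 bp wide with a Pcl A fold of 12.9 and a Pcl B fold of 11.5. Among B-only regions within 1 kb the highest folds were 5.14 on 2R from 21091302 to 21091517 and 5.14 on 3L from 12450851 to 12451171. Their replicated neighbours had lower folds in Pcl B, 4.32 and 3.79.

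Members were narrow and consisted of exactly 1 peak each. The median width was 238 bp for A-only regions (order-statistic 95% interval 233 to 243 bp), with a range of 157 to 1804 bp, and 183 bp for B-only regions (176 to 189 bp), with a range of 151 to 533 bp. Replicated regions had a median width of 757 bp. As the union of peaks from several lists they are wider by construction. Their single peaks were also wider, with a median of 636 bp for Pcl A peaks and of 292 bp for Pcl B peaks. A wide peak has more room to overlap a peak of the other list, so the rule itself also sorts single peaks by width. The smallest widths, 157 and 151 bp, were the minimum of each list, and 6.11% of A-only and 19.3% of B-only regions had exactly that width. Over all peaks of each list, on all sequences, the share was 3.92% in Pcl A and 7.12% in Pcl B. A-only regions became narrower with distance, from a median of 267 bp within 1 kb to 224 bp at 1 to 5 kb and 207 bp over 10 kb. The medians of B-only regions at these distances were 193, 179 and 170 bp. The widest A-only regions were on 2L from 18890598 to 18892401 (1804 bp, fold 3.87) and on 2L from 6541688 to 6543196 (1509 bp, fold 3.66), 109 and 100 bp from a replicated region. The widest B-only regions, 533 bp each, were on 3R from 9692454 to 9692986 and from 13386855 to 13387387, with folds of 3.79 and 4.87.

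The members' fold belongs to the calls that chose them and is given as a description. It had a median of 2.83 for A-only regions (2.79 to 2.88) with quartiles of 2.55 and 3.18 and a range of 1.72 to 6.90. For B-only regions the median was 3.56 (3.52 to 3.63), with quartiles of 3.24 and 4.04 and a range of 2.43 to 5.42. Replicated regions had a median Pcl A fold of 3.85 and a median Pcl B fold of 4.31, and 94.4% of A-only and 88.5% of B-only regions lay below these. Compared with the narrower single peaks of replicated regions, the gap was smaller. Single Pcl A peaks of replicated regions no wider than 337 bp, the upper quartile of A-only regions, had a median fold of 2.90, and Pcl B peaks no wider than 219 bp had one of 3.67. The medians of the members cover all their widths, so these sets are not matched, and the gap at equal width may be larger. Fold changed little with distance. A-only medians were 2.92 within 1 kb and 2.75 over 10 kb, and B-only medians were 3.61 and 3.52. At a q of 1e-05 or lower, 675 A-only regions (33.0%) and 71 B-only regions (19.0%) passed. The median −log10 q was 4.155 for A-only and 3.742 for B-only regions. For replicated regions it was 9.473 in Pcl A and 5.686 in Pcl B, so most of them passed in either list.

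**Figure D4:**
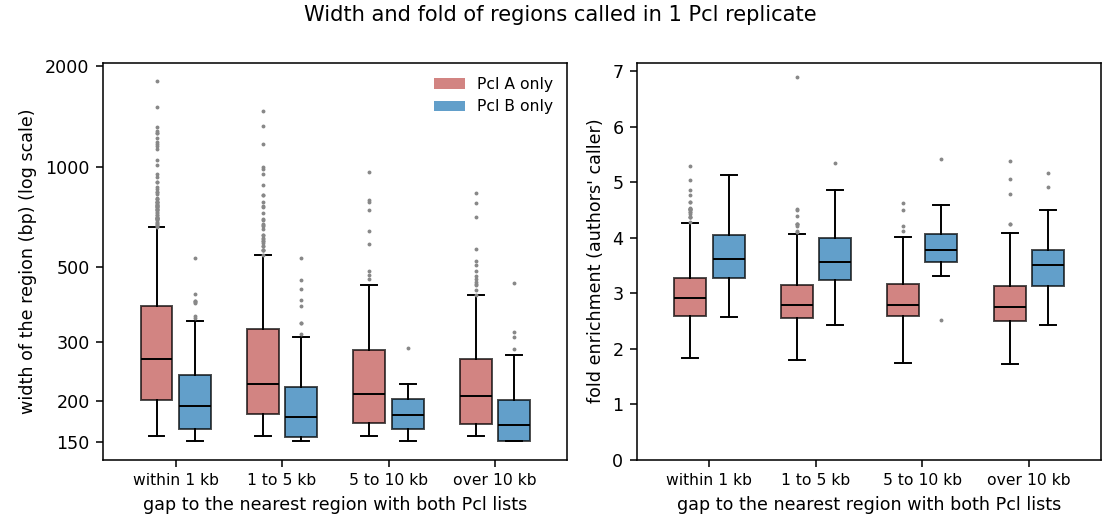
Width in bp (left, log scale) and fold (right, from 0) of A-only and B-only regions by the gap to the nearest region with both Pcl lists; boxes show quartiles with the median, whiskers reach 1.5 times the interquartile range and dots are regions beyond. Median width drops from 267 to 207 bp for A-only regions, and median fold moves between 2.75 and 2.92.

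Both lists were also read for the number of fragments behind a peak. Fold and p of every Pcl peak were met by 1 whole count at the summit and 1 background value, for 100% of the 5173 peaks of Pcl A and 100% of the 3917 of Pcl B (relative tolerance 0.001). The lowest background of the list, its floor, was 6.54 fragments for Pcl A, against 2.70 for Pcl B, a ratio of 2.42. The lists do not say whether the authors' caller scaled the backgrounds, so these values need not be proportional to the reads of each library. A-only regions had a median summit count of 24 over a background of 7.27, and B-only regions 14 over 2.94. Replicated regions had a median of 35 over 8.46 in Pcl A, and of 17 over 3.23 in Pcl B. At the floor, the lowest count called was 16 in Pcl A, a fold of 2.25, and 9 in Pcl B, a fold of 2.70. Folds of 798 A-only regions (39.0%) were below that 2.70, whereas all 373 B-only regions had a fold of at least 2.25. The part of this difference in background in the numbers of A-only and B-only regions was not tested. Where the background exceeded the floor, the lists held lower folds, down to 1.43 in Pcl A and 1.65 in Pcl B. With counting error taken into account, a lower 95% bound of the fold was used (exact Poisson on the summit count). It stayed at or above the other list's lowest fold at its floor for 91 A-only regions (4.45%) and 111 B-only regions (29.8%). Of these 91, 55 lay within 1 kb of a replicated region and 10 over 10 kb away. Of the 111, 46 and 22 did. The background of the other library at these places is not known, and it may exceed its floor.

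**Figure D5:**
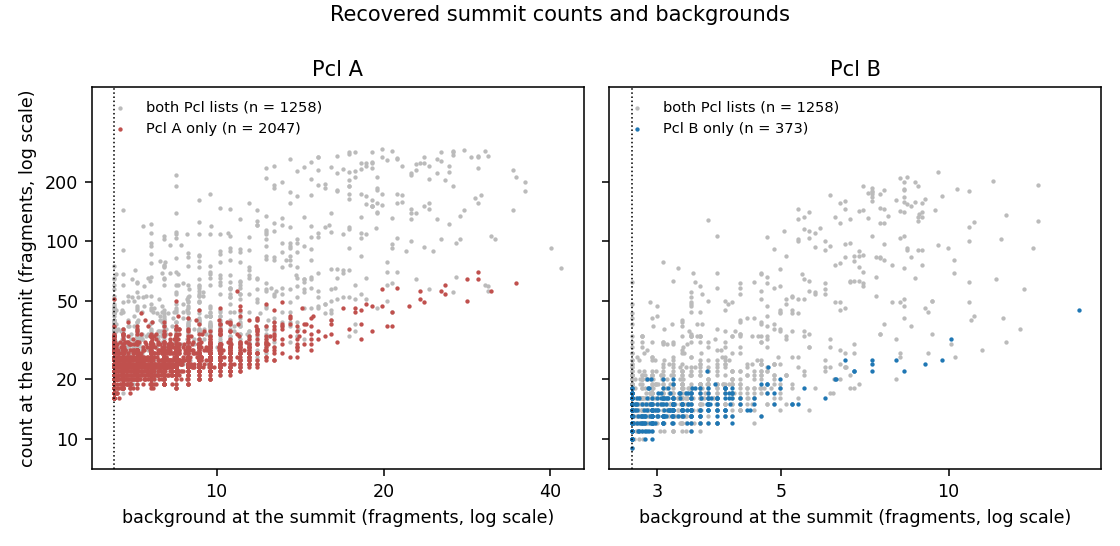
Recovered count at the summit (y axis, fragments, log scale) against background (x axis, fragments, log scale) in Pcl A (left) and Pcl B (right); coloured points are A-only or B-only regions, grey points the 1258 regions with both Pcl lists, and the dotted line is the floor of the list (6.54 and 2.70). Members lie along the lower edge of each cloud, with median counts of 24 and 14.

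The strongest member of all was an A-only region on 3R from 7094632 to 7095224, 593 bp wide, with a fold of 6.90 from a summit count of 51 over 6.54. It was enclosed by replicated regions, the nearer of which was 2.53 kb to its right on 3R from 7097754 to 7099261 with a Pcl A fold of 9.11 and a Pcl B fold of 8.92, and the nearest Pcl B peak was 2.58 kb away. Among B-only regions the first by strength, on 2L from 21837754 to 21837977, had a fold of 5.42 from 20 over 2.88 and lay 6.59 kb from a replicated region with a Pcl A peak 4.22 kb away. The second B-only region, on 2L from 11208817 to 11209004 with a fold of 5.35, missed a Pcl A peak by 18 bp.

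Such near misses show where the rule draws its line. A peak of the other Pcl list lay within 100 bp of 6.74% of A-only and 20.6% of B-only regions, and within 500 bp of 32.4% and 55.5%. Just inside the rule, an A-only region on 2L from 12651811 to 12652065 (fold 2.52) and a B-only region from 12652067 to 12652243 (fold 3.79) were separated by 1 bp, and so were an A-only region on 3L from 12446381 to 12446894 (fold 2.77) and a B-only region from 12446038 to 12446379 (fold 3.41). Just outside it, the replicated region on 3L from 12707657 to 12708229 had Pcl A and Pcl B peaks that shared 1 bp, with folds of 2.64 and 2.95, and the one on 3L from 13204224 to 13204641 had 2 bp in common, with folds of 2.92 and 2.91. On 2R from 8914337 to 8914834 the Pcl peaks shared no base and lay 126 bp apart, and the region also held 1 Jarid2 B peak. In all, 35 of the 1258 replicated regions shared fewer than 50 bp.

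Another A-only region was within 5 kb of 81 of the 288 A-only regions standing alone (28.1%), and another B-only region within 5 kb of 4 of the 86 B-only ones (4.65%). Stretches without a replicated region that held a member numbered 336, of which 284 had 1 Pcl region, 41 had 2 and 11 had 3 or more, with a maximum of 5. The highest fold over 10 kb from a replicated region was 5.39, in an A-only region on 2R from 4927001 to 4927233 with a summit count of 50 over 8.46. The nearest replicated region was 153 kb away, and the nearest Pcl B peak 22.1 kb. Next came A-only regions on 3R from 16716804 to 16717582 (fold 5.06, 44.1 kb away) and on 3L from 22840771 to 22841010 (fold 4.79, 123 kb away). Among B-only regions the strongest were on 3L from 1380936 to 1381178 (fold 5.17, 201 kb away) and on 2R from 4647149 to 4647361 (fold 4.91, 110.1 kb away). More than 100 kb from any replicated region were 123 A-only (6.01%) and 43 B-only regions (11.5%).

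In some places both lists had a peak close by without overlap. Of the 288 A-only regions standing alone, 22 had a B-only region within 5 kb (7.64%), and of the 86 B-only regions 20 had an A-only region as near (23.3%). The closest pair was on 3R, where the A-only region from 13472243 to 13472403 (fold 2.14) lay 5 bp from a B-only region in a stretch starting at 13472045, 46.3 kb from any replicated region. Far from any replicated region, a stretch on 3R from 21341201 to 21341705 held an A-only region with a fold of 2.66 and a B-only region with a fold of 2.88, 167 bp apart and 419 kb from the nearest replicated one. The A-only region of this second pair had a Jarid2 peak 0.32 kb away and a background of 21.15 fragments, against a floor of 6.54. Both of these pairs are joined when peaks up to 1 kb apart are merged, and in the second the Jarid2 peak is joined too.

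Jarid2 peaks lay close to part of the members standing alone. A Jarid2 peak, which by the rule cannot overlap a member, was within 1 kb of 39 of the 288 A-only regions over 10 kb from a replicated region (13.5%, 10.1 to 18.0%) and of 13 of the 86 B-only ones (15.1%, 9.05 to 24.2%). Of the sequence that far from a replicated region, 3.09% lay within 1 kb of a Jarid2 peak. Nearer to replicated regions, it held for 4.74% of A-only regions within 1 kb, 8 of 665 at 1 to 5 kb and 4.88% at 5 to 10 kb. For B-only regions it held for 4.20% within 1 kb, 1 of 127 at 1 to 5 kb and 0 of 17 at 5 to 10 kb (Wilson upper bound 18.4%). This order was not seen for a Jarid2 peak within 5 kb, which 22.6% of A-only regions standing alone had against 25.2% of those within 1 kb of a replicated region, and 22.1% against 26.6% of B-only regions. Replicated Pcl regions without Jarid2 that were over 10 kb from the next replicated one had a Jarid2 peak within 1 kb in 5 of 94 cases (5.32%, 2.29 to 11.8%). Of the 3 A-only and 3 B-only regions farthest from a replicated region, 3 had a Jarid2 peak that near. An A-only region on 3L from 16473889 to 16474090 (fold 2.69), 1308 kb from a replicated region, was 0.353 kb from a Jarid2 peak. B-only regions on 3L from 16883921 to 16884071 (fold 2.93) and on 2L from 17449455 to 17449659 (fold 2.50) were 0.223 and 0.515 kb from one. The other 3, on 2R with starts at 403797, 675902 and 706741, were 1211, 939 and 908 kb from the nearest Jarid2 peak.

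The background moved with these values. Among regions standing alone, those with a Jarid2 peak within 1 kb had a median background of 9.39 fragments in Pcl A against 8.04 for the others, and of 5.49 in Pcl B against 3.07. Only 3 of the 39 A-only and 1 of the 13 B-only regions were at the floor. With or without a Jarid2 peak nearby, 20.1% of A-only regions standing alone were at the floor. The share was 30.4% of those within 1 kb of a replicated region and 30.0% of all A-only regions. The part of the raised background in the closeness to Jarid2 peaks was not tested. Left out of the members for overlapping a Jarid2 peak were 51 regions with 1 Pcl list. Of these, 37 (72.5%, 59.1 to 82.9%) were over 10 kb from a replicated region. The share that far away was 14.1% of all A-only and 23.1% of all B-only regions. It was 94.7% of Jarid2-only regions and 92.9% of the sequence outside replicated regions.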

How the data were processed

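ChIP-seq peak lists of 4 immunoprecipitated libraries were used, each called on 1 library. Per the submitters' processing notes, the build was dm3 and the tools were Trimmomatic 0.36, Bowtie 1.2.2, deepTools 3.0.2 and MACS2 2.1.1, with no roles given. The deposited lists give for each peak a fold enrichment (a linear ratio), −log10 p, −log10 q and a score, which was not used. The smallest −log10 q was 1.31 (Pcl A) and 1.33 (the Pcl B list). The control and the settings of the caller are not given in the sources used here, nor are read totals. No annotation or genome of the lists' build was used, so no genes or sequences are given. Groups were taken from the sample titles.

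Starts are 1-based. Gaps were measured from edge to edge to the nearest region with both Pcl lists, also where it held a Jarid2 peak or lay in a left-out window. A region's fold was the highest of its peaks in a list. Arm lengths were taken as the highest peak end. Summit counts are the whole numbers, up to 2000, that give both the fold and the p of a peak if 1 was added to count and background before division and p is the upper Poisson tail. Regions were named by rules of rank: the 3 strongest, widest, farthest and nearest to the line of the rule, and the densest stretches and windows. Members, lists and rules were chosen with earlier results of these data known. The comparison of counts, the closeness to Jarid2 peaks and the near pairs were chosen after their values were seen. No test was run, because members were chosen on the same calls and there are 2 libraries. The classing of regions was tested on simulated data and recovered all planted classes. Python 3.11.15, numpy 2.4.6, pandas 2.3.3, scipy 1.17.1 and matplotlib 3.10.9 were used.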

Additional observations from a re-analysis of the deposited data

Results flagged for a closer look

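Signals of the same kind were present outside the members. On X, on 4, on the heterochromatin sequences and on M there were 703 regions with 1 Pcl list and no Jarid2 list, of which 502 A-only and 72 B-only regions were on X and 81 and 22 on 4. The 3 left-out windows on 3R held 286 such regions. On the 4 arms, 51 regions with 1 Pcl list also held a Jarid2 peak, 45 of them with Pcl A and 6 with Pcl B. They are given because the members leave them out, and nothing is drawn from their number.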

How the results depend on the processing

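Of 94 values under 8 alternatives, all planned, 65 stayed within the 95% interval of the reported value (for numbers, within 1.5 times) and 29 moved beyond it. Leaving out Jarid2 A or Jarid2 B moved none. Causes were not tested, apart from those that a setting creates itself. Bridging gaps of at most 1 kb left 479 A-only and 108 B-only regions. None can then lie within 1 kb of a replicated region (0% in both), 44.7% and 61.1% stood over 10 kb away, median widths were 231 and 172.5 bp, and the A-only median fold was 2.79. With q at or below 1e-05 in all lists there were 1023 A-only and 143 B-only regions. Only 675 A-only and 71 B-only members passed that q, so the rest became members when peaks of other lists were cut. Of the regions, 38.8% and 30.8% were within 1 kb, and 17.5% and 18.2% over 10 kb away. Median widths were 360 and 213 bp and median folds 3.45 and 4.36. Of A-only regions within 1 kb, 85.1% were weaker than their neighbour. Pcl lists of equal length (3917 peaks each) left 1314 A-only regions, with a median width of 263 bp and a median fold of 3.08. B-only regions then numbered 499, against 373 as reported, which stayed within 1.5 times. Joining only peaks that share at least 50% of the shorter gave 533 B-only regions, also within 1.5 times. They were 190.0 bp wide in the median, with 47.3% within 1 kb and 18.2% over 10 kb away. With the 3 windows on 3R kept, 50.2% of A-only regions were within 1 kb and 12.5% over 10 kb away. On all sequences the A-only median fold was 2.88. Leaving out a Pcl library was not run, since the rule needs both. No paired analysis was possible because the results come from no test and describe 1 list each. Read totals are not given, so how far depth sets these numbers was not tested.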
